A study of Ovis aries with 30 samples.

Results

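Nitric oxide and the natriuretic peptides both act on cells by raising cyclic GMP. Nitric oxide is made from arginine by NOS3 in the endothelium of blood vessels and by NOS2, the inducible synthase, in stimulated cells. It binds the soluble guanylyl cyclase, a heterodimer of the alpha subunit GUCY1A1 and the beta subunit GUCY1B1. NPR1 is a membrane receptor for the atrial and brain natriuretic peptides that carries its own guanylyl cyclase, whereas NPR3 is the clearance receptor that removes the peptides. Cyclic GMP activates the protein kinase PRKG1, which phosphorylates VASP, a regulator of actin filaments, and PDE5A breaks cyclic GMP down. In adipose tissue the pathway is known for widening blood vessels, for lipolysis and for promoting brown adipocyte development, and in the thyroid for control of blood flow. The 9 genes named here were taken by symbol from the count table, which holds 28524 genes. All 9 were present once and passed the filter on low counts in both tissues.

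RNA was sequenced from brown adipose tissue (BAT) around the kidneys and from the thyroid of 15 newborn Romney lambs. In the cold group, 6 lambs were kept at 4 °C for 2 days. In the ambient temperature (AT) group, 6 lambs were kept at 20 to 22 °C for 2 days, and the control group of 3 lambs was sampled about 24 h after birth without that stay. The treated lambs were therefore older than the controls, so treatment and age cannot be told apart in the comparisons with control, whereas cold and AT lambs were of like age. All were unmodified animals, each the heavier lamb of a twin pair from a different ewe and kept with that ewe, and each gave 1 library per tissue, so that every library of a group is a separate lamb. The study used 2 of the 3 controls, Control 1 and Control 3, in both tissues, and left out the third for its outlying counts. Those 2 are used in the tests below, and the value of the unused Control 2 is given beside them. Both comparisons with control share these 2 libraries.

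Depth was 31556500 to 37025998 counts per library in BAT and 25062784 to 30124871 in thyroid, but 2 genes alone took 43.8 to 76.5% of the counts in BAT. Normalized counts are counts divided by size factors from ACTB, RPL19 and HUWE1, computed within each tissue unless both tissues are named. A gene passes where the adjusted p of the edgeR quasi-likelihood test, corrected over all genes tested by the Benjamini-Hochberg method, was under 0.05. The reference genes did not pass within a tissue, but they did not all stay level. In AT against control in BAT, the log2 fold change was -0.67 ± 0.22 (SE) for ACTB (adjusted p = 0.0611, edgeR). For RPL19 it was 0.31 ± 0.19 (adjusted p = 0.311, edgeR). The groups of both did not overlap there, as for 24.3% of all genes. The labels matched the markers. Thyroid follicular cell markers summed to at least 1329000 normalized counts in every thyroid library used and to at most 1579 in BAT, and brown adipocyte markers to at least 11980 in BAT and at most 6704 in thyroid. The unused Control 2 stood apart in BAT, with a brown adipocyte sum of 301400 against 11980 to 90470 in the BAT libraries used. Parathyroid and C cell markers varied from 210 to 252500 among the thyroid libraries used. The thyroid libraries AT 3 and Control 1 stood apart by skeletal muscle fibre markers, which summed to 3508000 and 307700 normalized counts against 135 to 4102 in the other libraries used. In bulk tissue, fewer cells of a type and less RNA per cell cannot be told apart.

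The genes lie on 8 chromosomes of the assembly Oar_rambouillet_v1.0. NOS2 spans chromosome 11 from 43968938 to 44004435, NOS3 chromosome 4 from 123640104 to 123659003 and VASP chromosome 14 from 56596503 to 56609399, each on the plus strand. The cyclase subunit genes are neighbours on the minus strand of chromosome 17, with GUCY1B1 from 51464586 to 51517848 and GUCY1A1 from 51547785 to 51612576, 29936 bases apart. NPR1 (chromosome 1, 110280323 to 110294448) and PDE5A (chromosome 6, 7323277 to 7472461) lie on the plus strand, and NPR3 (chromosome 16, 43314567 to 43389867) and PRKG1 (chromosome 22, 8241141 to 9636387) on the minus strand. Exons of 2 of the genes overlap genes on the opposite strand: NOS3 shares 122 bases with ATG9B and also overlaps LOC105609336, and VASP overlaps OPA3. The sources used here do not state whether strand was used in counting, so reads of these partners cannot be separated with certainty.

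The order of mean levels among the 9 genes differed between the 2 tissues. In BAT, NOS3 and NPR1 had the highest means, and in thyroid VASP and PDE5A, although VASP was higher in BAT than in thyroid. Per kb of exon, on a scale common to both tissues, the mean level in the 14 BAT libraries used was 1128 for NOS3, 740 for NPR1, 525 for VASP, 524 for GUCY1B1, 324 for GUCY1A1, 176 for PDE5A, 79.3 for NOS2, 33.6 for PRKG1 and 25.9 for NPR3. NOS3 averaged 2650 per kb in the used controls, 1007 in cold and 741 in AT. Some neighbours in this order were not separated: NOS3 exceeded NPR1 and PRKG1 exceeded NPR3 in 9 of 14 libraries each, VASP exceeded GUCY1B1 in 7 of 14 libraries and NOS2 exceeded PRKG1 in 7 of 14, while GUCY1B1 exceeded GUCY1A1 in 14 of 14. In thyroid the order of mean levels per kb was VASP at 299, PDE5A at 199, NPR1 at 167, GUCY1B1 at 132, NPR3 at 85.0, NOS3 at 61.7, GUCY1A1 at 56.7, NOS2 at 36.3 and PRKG1 at 18.5. Here NOS3 exceeded GUCY1A1 in only 5 of 14 libraries and NPR3 exceeded NOS3 in 9 of 14, so their ranks are not settled.

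**Figure D1:**
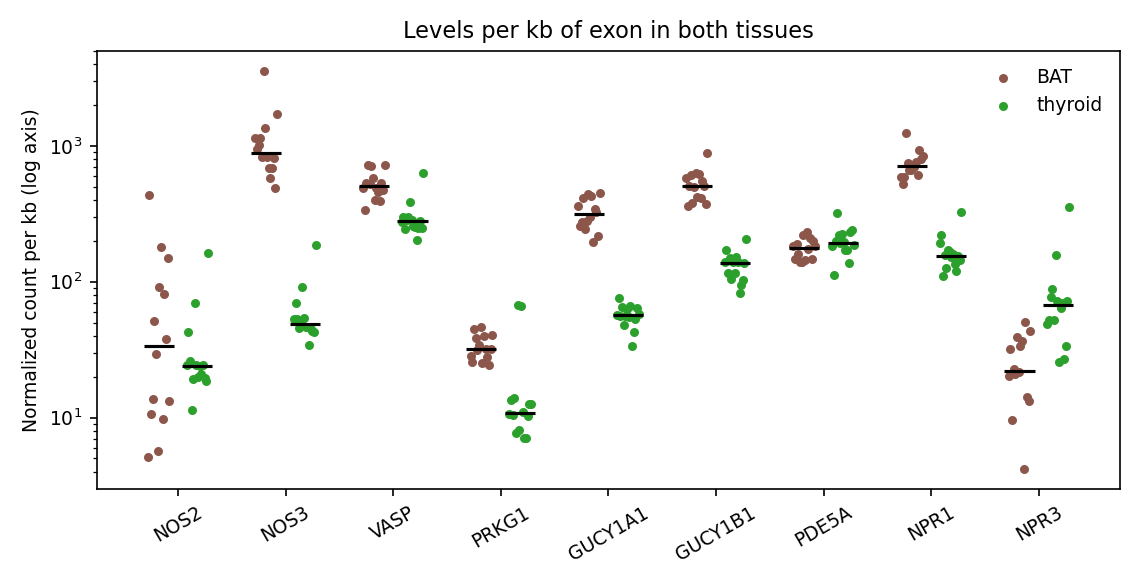
Normalized count per kb of exon (log axis) of the 9 genes in the 14 BAT (brown) and 14 thyroid (green) libraries used, 1 point per library, with the median as a black line. NOS3, GUCY1A1, GUCY1B1 and NPR1 do not overlap between the tissues, whereas PDE5A overlaps and NOS2 spreads from 5.10 to 434 in BAT.

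Between the tissues, 6 of the 9 genes were higher and 1 was lower in BAT, against 71% of all 17021 genes tested that passed (44.5% higher and 26.5% lower), so a share of this size is not particular to these genes. The difference was 4.18 ± 0.21 (log2 fold change ± SE) for NOS3, 2.55 ± 0.17 for GUCY1A1, 2.04 ± 0.16 for NPR1 and 1.99 ± 0.15 for GUCY1B1, and each of these was higher in BAT than in thyroid in all 14 lambs. VASP was 0.76 ± 0.10 higher in BAT, also in 14 lambs. In the unused Control 2, NPR1 alone of these genes went the other way, with 60.8 per kb in BAT and 72.2 in thyroid. NPR3 was lower in BAT by 1.79 on the log2 scale (SE 0.28, adjusted p = 2.1e-06, edgeR), in 6 of 6 cold, 4 of 6 AT and 2 of 2 control lambs. With Control 2 in place of Control 3 the difference was -1.11 (adjusted p = 0.0016). PDE5A (-0.18 ± 0.13, adjusted p = 0.237, edgeR) and NOS2 (-0.11 ± 0.34, adjusted p = 0.788, edgeR) did not pass. With TMM scaling PDE5A was lower in BAT (-0.35, adjusted p = 0.0118). PRKG1 passed at 0.78 ± 0.32 (adjusted p = 0.0311, edgeR), and the call was lost with TMM scaling (0.60, adjusted p = 0.0837) and without Cold 4, AT 4 or AT 6. Leaving out either thyroid library with muscle markers moved it: the difference was 1.10 without AT 3 and 1.60 with Control 2 in place of Control 1.

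Ratios of 2 genes within a library do not depend on the size factors, and 33 such comparisons, chosen after the data were seen, were made by exact permutation tests over samples. The ratio of GUCY1A1 to GUCY1B1 per kb was 0.470 to 0.713 in the treated BAT libraries and 0.360 to 0.544 in the treated thyroid libraries. In the used controls it was 0.505 and 0.564 in BAT and 0.283 and 0.403 in thyroid. It was higher in the BAT of all 14 lambs used, by 0.51 on average on the log2 scale (2-sided exact sign-flip permutation p = 0.00012, the smallest that 14 lambs allow). The unused Control 2 went the other way, with 0.253 in BAT and 0.786 in thyroid. The alpha and beta subunits pair one to one in the enzyme, and at the level of RNA the beta subunit was the higher of the pair per kb in every library used. That order rests on the counted exon length, 8494 bases for GUCY1A1 and 3168 for GUCY1B1. Before division by length, GUCY1A1 had the higher mean normalized count, 1703 against 1028 in BAT and 772 against 671 in thyroid. Which subunit had more transcripts was not tested.

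NOS2, the inducible synthase, was the gene of the 9 that differed between cold and AT lambs in BAT, and it stood differently in the thyroid. In BAT the 6 cold libraries had 13.02, 24.9 and 91.1 normalized counts (lowest, median and highest), from 7 to 125 reads, and the 6 AT libraries had 128, 286 and 1029. Control 1 had 72.2, Control 3 had 32.8 and the unused Control 2 had 19.4. Every AT library thus lay above every cold library and every control (in BAT, groups failed to overlap for 0.691% of genes between cold and AT).

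NOS2 was lower in cold than in AT by 3.50 on the log2 scale (SE 0.58, 11.3-fold, adjusted p = 0.0287, edgeR). It was the only one of the 9 genes to pass in BAT between cold and AT, where 0.309% of all 14905 genes tested passed and 0.0939% were lower. An exact permutation test on NOS2 alone gave p = 0.00216, the smallest that 6 lambs against 6 allow, among 18 such tests of the 9 genes in 2 tissues, of which 3 were under 0.05. The direction held in all 23 other settings tried, with the difference between -4.10 and -2.93, while the adjusted p ranged up to 0.0818 and passed the threshold in 12 of them. The call was lost with all 3 controls, with no filter, on leaving out any of Cold 1 to Cold 5, AT 3 or AT 5, and on exchanging either control for Control 2. Of all genes tested, 0 passed with all 3 controls, without Cold 4, without AT 5 or with either control exchanged. In the other settings where the call was lost, 2 to 41 of all genes passed.

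Against the controls, the difference of NOS2 in BAT was 2.93 ± 0.90 in AT (adjusted p = 0.0551, edgeR), just short of the threshold. The call was gained in 10 of 23 settings, among them all 3 controls (3.32, adjusted p = 0.0135). In cold the difference from control was -0.57 ± 0.79 (adjusted p = 0.749). Macrophages can express NOS2, and the macrophage markers summed to 1363 to 10630 normalized counts in cold, 1623 to 4276 in AT and 1681 to 2602 in the controls used. Between cold and AT, where 0.309% of all genes passed, 0 of these 8 markers passed, with a median log2 fold change of 0.35. In AT against control, where 9.3% of all genes passed, 0 of 8 were higher and 1 was lower. Neutrophil markers summed to 46.8 to 160 in cold and 55.9 to 139 in AT, with 0 of 2 passing between them (median -0.14). With so few genes passing between cold and AT, these counts cannot tell whether either cell type differed. The part of macrophages and neutrophils in the NOS2 levels was not tested.

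In thyroid NOS2 followed another course, with the controls at the top. Control 1 had 439 normalized counts and Control 3 had 1013, against 73.3, 140 and 171 in cold and 120, 137 and 267 in AT (lowest, median and highest), and the unused Control 2, at 122, lay among the treated lambs. The treated and the used control libraries did not overlap. NOS2 was lower by 2.43 in cold (SE 0.34, adjusted p = 0.0016, edgeR) and by 2.22 in AT (SE 0.35, adjusted p = 0.0017), and it did not pass between cold and AT (-0.21 ± 0.27, adjusted p = 0.943). With Control 2 in place of Control 3 the differences shrank to -1.06 in cold (adjusted p = 0.104) and -0.84 in AT (adjusted p = 0.211). With all 3 controls both passed, at -1.96 and -1.74.

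**Figure D2:**
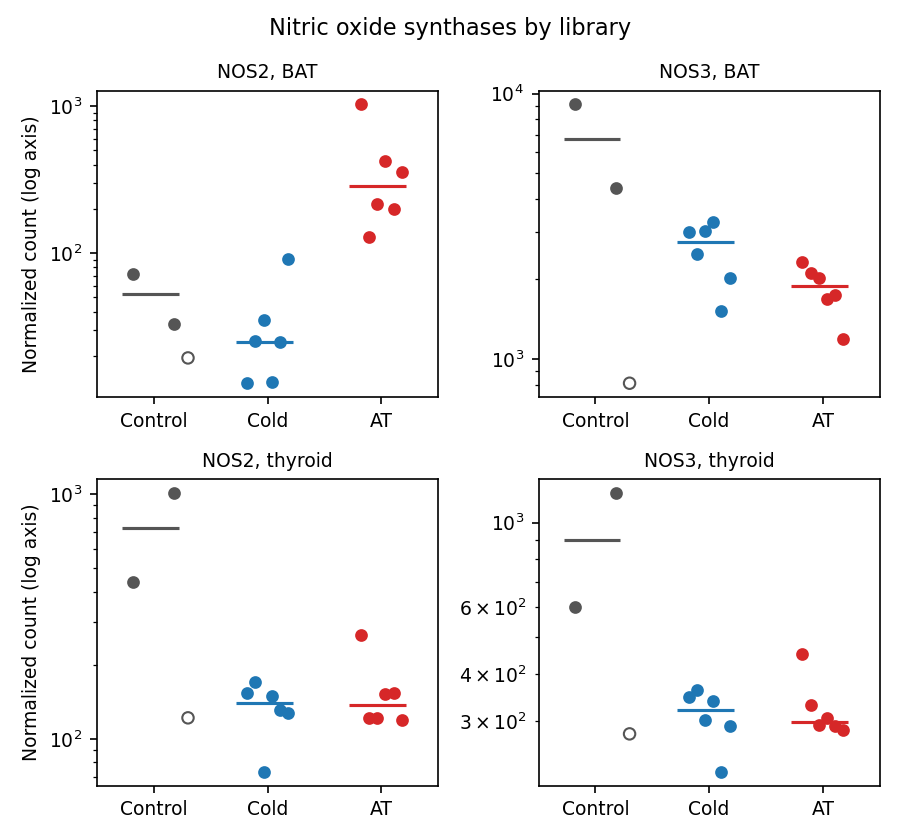
Normalized counts (log axis) of NOS2 and NOS3 in BAT (top) and thyroid (bottom), 1 point per library, with the group median of the libraries used as a line and the unused Control 2 as an open circle. In BAT the 6 AT libraries of NOS2 sit at 128 or more and the 6 cold libraries at 91.1 or less, and NOS3 of both used controls lies above all treated libraries in both tissues.

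The tissues differed in how NOS2 stood in AT against control. The change in BAT exceeded that in thyroid by 5.20 ± 0.99 on the log2 scale (adjusted p = 0.00775, edgeR interaction test), and NOS2 was the only one of the 9 genes with such a difference, where 1.66% of all genes tested had one (1.51% with the difference upward in BAT and 0.153% downward). For cold against control 0 of the 9 genes had one by edgeR (2 at an unadjusted p under 0.05, 0 by the DESeq2 Wald test), where 0.188% of all genes did (0.165% upward and 0.0235% downward). The NOS2 difference in AT against control passed in all 21 other settings, from 4.02 to 5.88, among them the fit with the lamb as a block (4.88, adjusted p = 0.0131) and all 3 controls (5.10, adjusted p = 0.00405). For cold against AT the difference of NOS2 between tissues was -3.32 ± 0.65 and did not pass (unadjusted p = 2.8e-05, adjusted p = 0.0964, edgeR interaction test). In that comparison 0 of all 17021 genes tested passed. Within lambs, BAT held more NOS2 than thyroid in 6 of 6 AT lambs (log2 ratio 1.40 to 3.35), in 2 of 6 cold lambs (-2.19 to 0.93) and in 0 of 2 controls (-3.60 and -1.24).

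**Figure D3:**
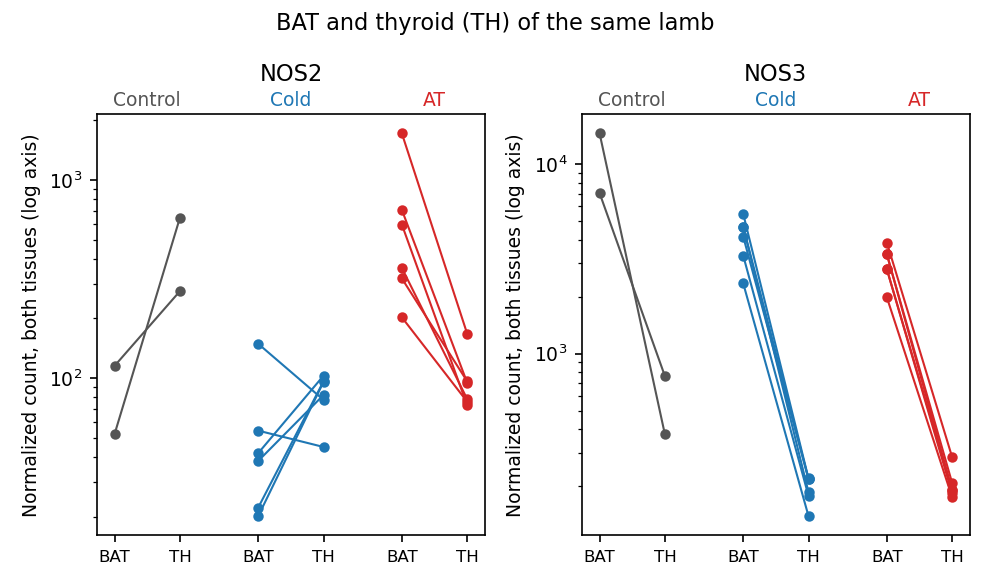
Normalized counts on a scale common to both tissues (log axis) of NOS2 and NOS3, each line joining the BAT and thyroid (TH) libraries of 1 lamb. NOS2 falls from BAT to thyroid in the 6 AT lambs, rises in both controls and in 4 of 6 cold lambs, and NOS3 is higher in BAT in all 14 lambs.

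The endothelial synthase NOS3 was lower in treated than in control lambs in both tissues. In BAT, Control 1 had 9104 normalized counts and Control 3 had 4404, against 1516, 2755 and 3284 in cold and 1190, 1881 and 2317 in AT. The unused Control 2 had 809, below every other BAT library. NOS3 was lower by 1.40 in cold (SE 0.30, adjusted p = 0.0357, edgeR), the only one of the 9 genes to pass there, where 1.48% of genes passed (0.604% higher and 0.879% lower). It was lower by 1.87 in AT (SE 0.30, adjusted p = 0.0030), and cold did not pass against AT (0.47 ± 0.23, adjusted p = 0.422).

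These BAT calls depended on which controls were used. With all 3, the difference was -0.82 in cold (adjusted p = 0.292) and -1.29 in AT (adjusted p = 0.0681), and with TMM scaling as well it was -0.86 (adjusted p = 0.196) and -1.34 (adjusted p = 0.0352), so that AT passed. With Control 2 in place of Control 1 the cold difference turned to 0.043 (adjusted p = 0.964) and that of AT shrank to -0.41 (adjusted p = 0.543). With Control 2 in place of Control 3 they were -0.87 (adjusted p = 0.302) and -1.32 (adjusted p = 0.102). The cold call was also lost on leaving out Cold 2, Cold 3, Cold 6 or AT 3.

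In thyroid, Control 1 had 598 and Control 3 had 1197 normalized counts of NOS3, against 221, 321 and 363 in cold and 285, 300 and 452 in AT, while Control 2 had 278. NOS3 was lower by 1.53 in cold (SE 0.24, adjusted p = 0.0023, edgeR) and by 1.46 in AT (SE 0.25, adjusted p = 0.0022). Both calls held with all 3 controls (-1.16 and -1.08), but with all 3 and TMM scaling that in AT was lost (-0.79, adjusted p = 0.0762). Both were lost with Control 2 in place of Control 3 (-0.50, adjusted p = 0.235, and -0.42, adjusted p = 0.337).

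In most treated thyroid libraries the endothelial markers, like NOS3, were lower than in the used controls. They summed to 39450 and 60080 normalized counts in the used controls, to 22920 to 30530 in cold and 23540 to 42620 in AT, and 3 of 10 were lower in cold and 4 of 10 in AT. The highest AT library, AT 1, lay above Control 1. The unused Control 2 had 40740 in thyroid, also above Control 1, although its NOS3 (278 normalized counts) lay among the treated lambs. In BAT they summed to 86890 and 93300 in the used controls, 59780 to 96980 in cold and 59040 to 84100 in AT, and to 20370 in the unused Control 2. There 0 of 10 passed in cold, where 1.48% of all genes passed, and 2 of 10 were lower in AT, where 6.15% were lower. Set against these markers in the same library, NOS3 had 50.7 and 97.6 counts per 1000 endothelial marker counts in the BAT controls, 24.2 to 44.0 in cold and 19.9 to 35.5 in AT. In thyroid it had 15.2 and 19.9 in the controls, 9.66 to 12.99 in cold and 10.2 to 14 in AT. On this scale, added after the data were seen, the used controls lay above every treated library in both tissues. The 2-sided exact permutation p was 0.0357 in each of the 4 comparisons, the smallest that 2 against 6 allow. Control 2 had 39.7 in BAT and 6.83 in thyroid, which lie within and below the treated libraries. Endothelial cells are the main source of NOS3 in most tissues, and their part in its change was not tested.

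The overlapping partners of NOS3 were much lower in reads. In BAT, ATG9B averaged 88.7 normalized counts in the used controls and 109 in AT, and did not pass in either comparison with control. LOC105609336, looked at after its overlap was seen, was lower in AT in BAT by 1.17 (SE 0.31, adjusted p = 0.0267, edgeR), with a mean of 56.0 normalized counts against 125 in the used controls. It was also lower in AT in thyroid, by 1.23 (SE 0.36, adjusted p = 0.0269), with 15.6 against 36.96.

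The subunits of the soluble guanylyl cyclase did not pass in any comparison within a tissue. In BAT, GUCY1A1 had 1071, 1836 and 2283 normalized counts in cold, 1114, 1428 and 2190 in AT, 1491 in Control 1, among the treated lambs, and 2382 in Control 3, above all of them. Its partner GUCY1B1 had 850, 1078 and 1245 in cold and 690, 780 and 1188 in AT, with 987 in Control 1 and 1759 in Control 3, again above all treated libraries. GUCY1B1 did not pass in AT against control (-0.66 ± 0.25, adjusted p = 0.112, edgeR), and with TMM scaling it did (-0.58, adjusted p = 0.0445). In thyroid the differences of both subunits from control lay between -0.52 and 0.05 and none passed, the lowest adjusted p being 0.139. The unused Control 2 had 282 normalized counts of GUCY1A1 and 415 of GUCY1B1 in BAT, below every other library, and 530 and 252 in thyroid.

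Of the natriuretic peptide receptors, NPR1, which makes cyclic GMP, did not pass in any comparison within a tissue with the 2 controls, all treated lambs and no covariate. In BAT it had 1730, 2186 and 3959 normalized counts in cold, 1551, 2107 and 2360 in AT and 2039 and 2579 in the used controls, and 194 in the unused Control 2. In thyroid it had 908, 1257 and 1531 in cold, 948, 1162 and 1739 in AT, and 1348 and 2512 in the used controls, with 593 in Control 2, below all of these. It did not pass in cold (-0.67 ± 0.25, adjusted p = 0.0700, edgeR) or in AT (-0.67 ± 0.25, adjusted p = 0.0667). Both passed without AT 1 (adjusted p = 0.0455 and 0.0273) and with RNA integrity as a covariate, and with Control 2 in place of Control 3 the differences were 0.32 in each (adjusted p = 0.500 and 0.513).

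The clearance receptor NPR3 was the member whose thyroid call was the most stable. Control 1 had 1001, Control 3 had 2218 and the unused Control 2 had 1330 normalized counts, against 222, 451 and 574 in cold and 159, 334 and 473 in AT. All 3 controls lay above all 12 treated libraries. NPR3 was lower by 1.94 in cold (SE 0.40, adjusted p = 0.0067, edgeR) and by 2.36 in AT (SE 0.40, adjusted p = 0.0022), and both calls passed in all 24 other settings, with the highest adjusted p 0.0226 and 0.0204.

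In BAT, NPR3 was at low levels, with 10.9, 43.5 and 58.5 normalized counts in cold, 32.0, 79.5 and 127 in AT, 98.9 in Control 1, 108 in Control 3 and 519 in the unused Control 2. Every cold library lay below every control, as for 24.6% of all genes among the used libraries. The difference did not pass in cold with the 2 controls (-1.45 ± 0.49, adjusted p = 0.133, edgeR). With all 3 controls it passed (-2.61, adjusted p = 0.0141), as it did with Control 2 in place of either used control. Cold against AT gave -0.998 ± 0.38 (adjusted p = 0.312), and the exact permutation test on this gene alone gave p = 0.0498.

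The ratio of NPR1 to NPR3 per kb put the signalling receptor beside the clearance receptor. In thyroid it was 0.921 and 1.10 in the used controls and 0.363 in Control 2, against 1.43 to 4.60 in cold and 2.01 to 5.92 in AT. All 3 controls lay below all treated libraries (2-sided exact permutation p = 0.0119 for each treatment with all 3 controls, and 0.0714 in cold and 0.0357 in AT with the 2 used). In BAT the ratio was 16.8 and 19.3 in the used controls, 29.1 to 180 in cold and 12.04 to 60.0 in AT, and 0.304 in Control 2. Cold exceeded AT by 1.28 on the log2 scale (2-sided exact permutation p = 0.0346), though the groups overlapped. The ratio was higher in BAT than in thyroid in 14 of 14 lambs used, but not in Control 2.

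**Figure D4:**
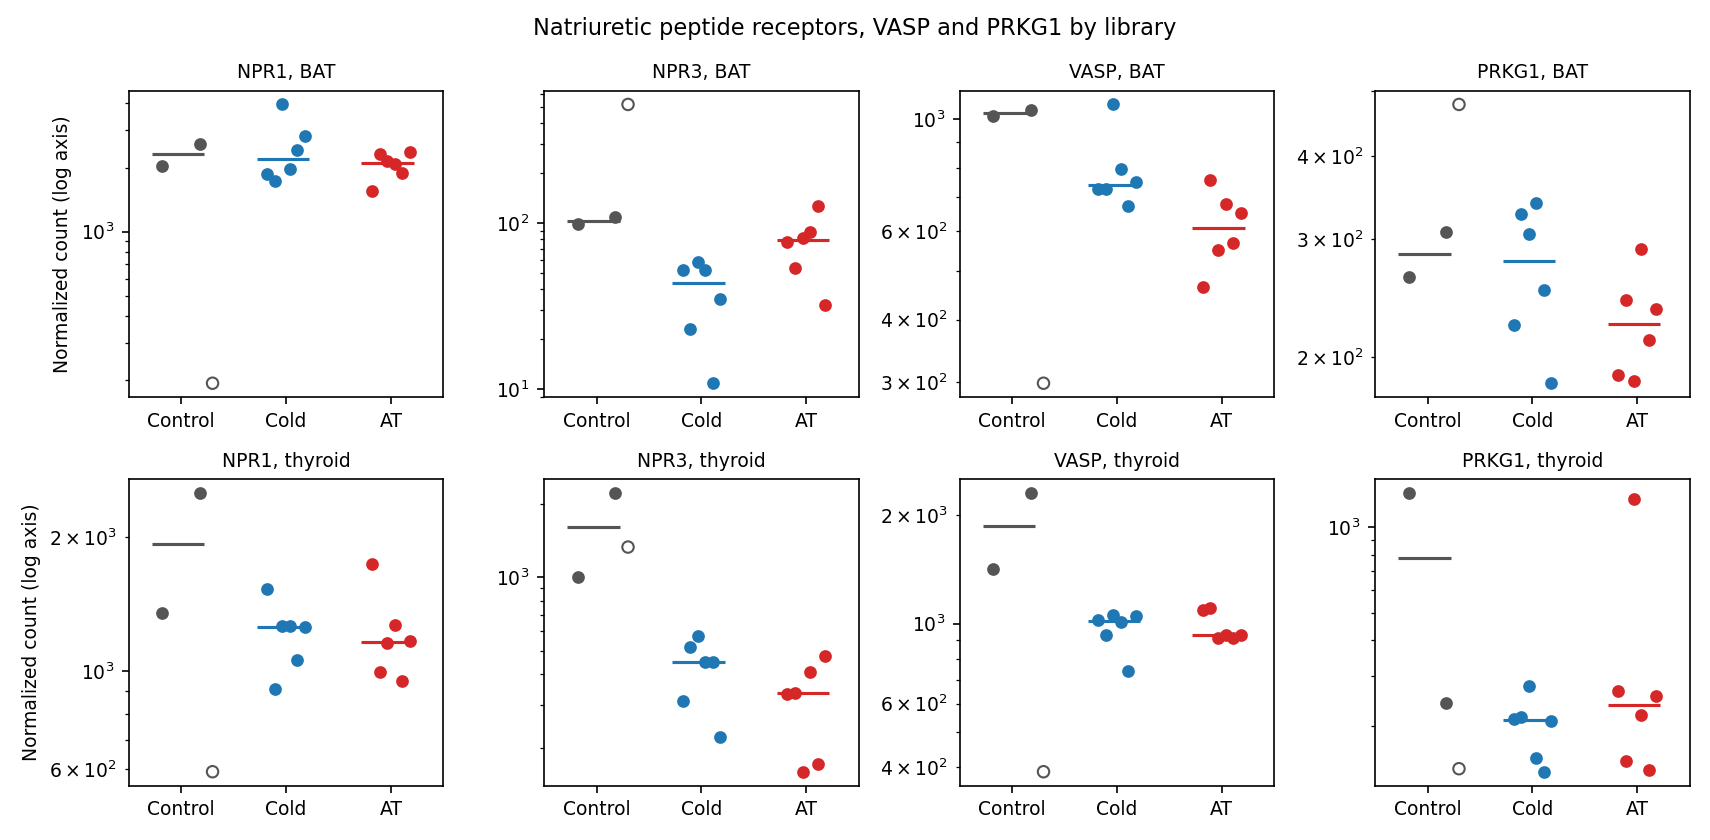
Normalized counts (log axis) of NPR1, NPR3, VASP and PRKG1 in BAT (top) and thyroid (bottom), 1 point per library, with the group median of the libraries used as a line and the unused Control 2 as an open circle. In thyroid all 3 controls of NPR3 lie at 1001 or more and all treated libraries at 574 or less, and PRKG1 stands high only in AT 3 and Control 1.

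PDE5A, which removes cyclic GMP, did not pass in any comparison within a tissue. In BAT it had 658, 830 and 974 normalized counts in cold, 638, 760 and 1022 in AT and 646 and 846 in the used controls, and the unused Control 2 had 1050, above all of these. In thyroid it had 2004, 2491 and 3863 in cold, 1305, 2120 and 2892 in AT, and 2251 and 2143 in the used controls, with 603 in Control 2, below all of these. The widest difference was cold against AT in thyroid, 0.33 ± 0.20 (adjusted p = 0.923, edgeR).

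The kinase PRKG1 did not pass in BAT, with 183, 279 and 340 normalized counts in cold, 185, 224 and 291 in AT and 263 and 308 in the used controls. The unused Control 2 had 478, above all of these, and with all 3 controls and TMM scaling the difference in AT was -0.74 (adjusted p = 0.0469, edgeR). In thyroid it had 137 to 276 in cold and 140 to 264 in 5 of the AT libraries, but 1257 in AT 3 and 1324 in Control 1, with 241 in Control 3 and 141 in Control 2. The 2 high libraries are those with the skeletal muscle fibre markers. PRKG1 did not pass in cold against control (-1.97 ± 0.72, adjusted p = 0.0695, edgeR). Without AT 3 it passed in both treatments (-1.98, adjusted p = 0.0037 in cold and -1.94, adjusted p = 0.0045 in AT), and without AT 3 and with Control 2 in place of Control 1 the differences were 0.07 and 0.12 (adjusted p = 0.913 and 0.847).

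VASP, the substrate of the kinase at the end of the pathway, had 674, 741 and 1071 normalized counts in cold, 464, 610 and 757 in AT, and 1014 and 1044 in the controls in BAT. The AT libraries lay below both controls, and the unused Control 2 lay lower still at 299. VASP was lower in AT by 0.75 (SE 0.20, adjusted p = 0.0299, edgeR), which made it, with NOS3, one of 2 genes of 9 that passed there, against 9.3% of all genes (3.15% higher and 6.15% lower). With NOS2, 3 of the 9 genes did not overlap between AT and control, against 24.3% of all genes. Smooth muscle cell and pericyte markers summed to 31230 and 45740 in the used controls, 23530 to 39980 in cold and 15600 to 25900 in AT, where 3 of 10 were lower, and their part in the VASP level was not tested. Cold did not pass against control (-0.38 ± 0.21, adjusted p = 0.353) or against AT (0.37 ± 0.15, adjusted p = 0.336). For cold against AT, the exact permutation test on VASP alone gave p = 0.0238. The AT call was lost in 8 of 23 settings, among them all 3 controls (-0.28, adjusted p = 0.534) and leaving out AT 1, AT 3 or AT 5.

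In thyroid VASP had 1416 in Control 1 and 2299 in Control 3, against 739, 1015 and 1059 in cold and 912, 930 and 1101 in AT. It was lower by 0.94 in cold (SE 0.18, adjusted p = 0.0041, edgeR) and by 0.92 in AT (SE 0.18, adjusted p = 0.0038). The unused Control 2, at 389, was the lowest library of all. Both calls were lost with all 3 controls (-0.50, adjusted p = 0.312, and -0.48, adjusted p = 0.336) and with Control 2 in place of either used control, and in place of Control 3 the differences turned to 0.097 and 0.118. OPA3, whose exons overlap VASP, averaged 665 normalized counts in the used controls and 350 in both treatments and did not pass (-0.93 ± 0.32 in each, adjusted p = 0.0530 in cold and 0.0501 in AT).

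In thyroid, then, NOS2, NOS3, VASP and NPR3 were lower in both treatments, 4 of 9 in each. Of all 16122 genes tested, 19.3% passed in cold (2.34% higher and 16.9% lower) and 21% in AT (2.23% higher and 18.7% lower), and the groups of 34.6% and 27.3% of genes did not overlap. The median log2 fold change of the 9 genes was -0.94 in cold and -0.92 in AT, against -0.28 for all genes in both. With TMM the median of all genes moved to 0.02 in cold and 0.05 in AT and the split of all calls to 628 higher and 802 lower in cold and 650 and 758 in AT, but the same 4 genes were lower and passed, VASP the least of them at -0.62 and -0.56. In BAT, TMM moved the split from 90 higher and 131 lower to 280 and 200 in cold and from 469 and 917 to 871 and 881 in AT. Thyroid follicular cell markers moved in the same direction, with sums of 2882000 and 5892000 normalized counts in the used controls, above every treated library (at most 2717000), and 3 of 9 tested lower in each comparison, though Control 2 had 1932000. Neutrophil markers summed to 187 and 318 in the used controls, 30.5 to 141 in cold and 48.8 to 527 in AT, with 0 of 1 passing. Macrophage and fibroblast marker sums were higher in the same comparisons. The macrophage sum was 1721 and 1821 in the used controls, 3365 to 9210 in cold and 2886 to 6072 in AT. Of its 8 markers, 4 were higher in each comparison, and 1 was lower in AT. The fibroblast sum was 10800 and 13540 in the controls against 25050 to 105400 and 29140 to 118800 (3 and 4 of 6 higher). The part of these cell types in the 4 genes was not tested. Between cold and AT in thyroid, 0 of the 9 genes and 0 of all genes passed by edgeR, with 0 of 9 and 870 of 16122 at an unadjusted p under 0.05. The DESeq2 Wald test called 0 of 9 and 4 of all. The groups of all 9 overlapped, and 0.192% of all genes had groups that did not.

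At an added absolute log2 fold change of 1, NOS3 remained in BAT in cold (1.21% of all genes passed) and in AT (6.07%), NOS2 between cold and AT in BAT (0.275%), and NOS2, NOS3 and NPR3 in thyroid in cold (8.04%) and in AT (7.8%). With all 3 controls, 1 of 9 passed in BAT in cold (NPR3, where 6.14% of all genes passed) and 1 in AT (NOS2, 12.1%). Between cold and AT 0 of 9 passed, as did 0 of all 14940 genes tested. In thyroid NOS2, NOS3 and NPR3 passed in cold (17.5%) and in AT (16.3%).

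**Figure D5:**
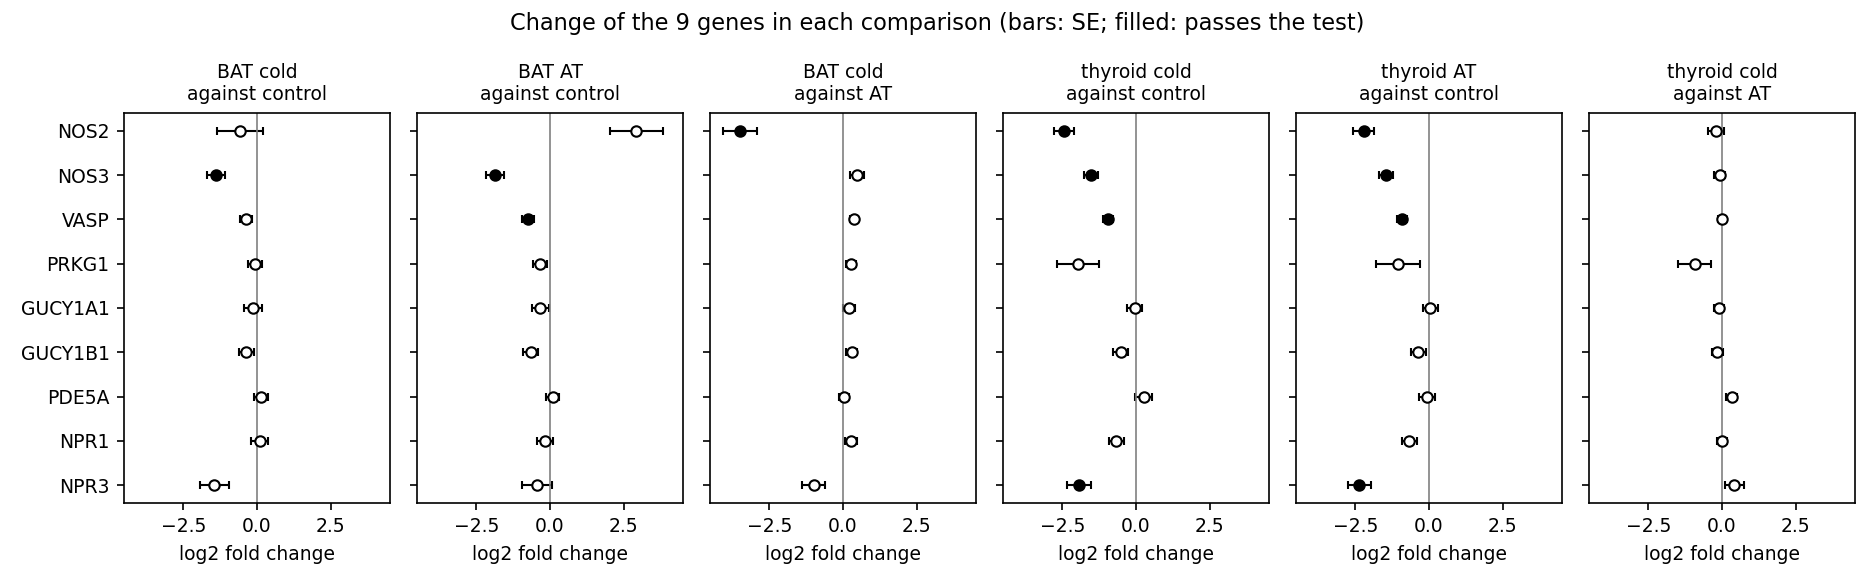
Log2 fold change ± SE of the 9 genes in the 6 comparisons within a tissue, filled where the gene passes. NOS2 stands at -3.50 in BAT between cold and AT, and 4 genes are filled on the left side in each thyroid comparison with control.

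Of 57 other genes of the pathway that were listed, 53 were in the table, and 41 in BAT and 47 in thyroid were tested. In BAT 0 of 41 passed in cold against control or against AT by edgeR (4 and 6 at an unadjusted p under 0.05, 1 and 2 by the DESeq2 Wald test). In AT against control 4 of 41 passed, near the 9.3% of all genes. QDPR, which regenerates the synthase cofactor tetrahydrobiopterin, was higher by 1.22 ± 0.24 (adjusted p = 0.00765, edgeR), a call kept in all 23 other settings. GCH1, which starts the making of that cofactor, was lower by 1.12 (SE 0.30), with a mean of 36.8 against 79.9 normalized counts. ASS1, which recycles citrulline towards arginine, was lower by 1.19 (SE 0.30), and PDE1A, a calcium-dependent phosphodiesterase, was higher by 1.35 ± 0.38. The calls of GCH1, ASS1 and PDE1A were each lost with Control 2 in place of either used control.

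In thyroid, 12 of 47 passed in cold (2 higher, 10 lower) and 10 of 47 in AT (2 higher, 8 lower), against 19.3% and 21% of all genes. The lower ones with the widest differences were the relatives of VASP, EVL and ENAH. EVL was lower by 2.37 in cold (SE 0.41) and 2.35 in AT (SE 0.41), with 5784 and 31280 normalized counts in the used controls, 13310 in Control 2, 2925 to 4644 in cold and 2424 to 5455 in AT. ENAH was lower by 2.30 (SE 0.38) and 2.16 (SE 0.38), with 2733 and 8959 in the used controls, 3416 in Control 2, 964 to 1385 in cold and 919 to 2680 in AT. All 3 controls of both genes lay above all treated libraries, and both calls passed in all 24 other settings in each treatment, unlike that of VASP. In BAT, EVL and ENAH did not pass. The change of EVL in AT against control differed between the tissues by 2.44 ± 0.52 (adjusted p = 0.0169, edgeR interaction test), in all 21 other settings too, and that of ENAH by 2.09 ± 0.49 (adjusted p = 0.0286), lost in 4 of 21 settings, with the lamb as a block among them.

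SLC7A1, a transporter that brings arginine into cells, was lower in thyroid by 2.14 in cold (SE 0.52, adjusted p = 0.0139, edgeR) and by 1.64 in AT (SE 0.52, adjusted p = 0.0399), the latter lost in 17 of 24 settings. DDAH2, which degrades the synthase inhibitor asymmetric dimethylarginine, was higher by 1.27 ± 0.21 in cold and 1.43 ± 0.21 in AT, in all 24 other settings in each. It had 476 to 603 normalized counts in the used controls and 846 in Control 2, against 1037 to 1625 in cold and 1216 to 1734 in AT. PDE9A, a phosphodiesterase selective for cyclic GMP, was higher by 0.94 ± 0.25 and 1.09 ± 0.25, each lost in 3 of 24 settings.

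Between the tissues 36 of 47 passed, 23 higher and 13 lower in BAT, against 71% of all genes (44.5% higher and 26.5% lower). The widest differences were those of the neuronal synthase NOS1, which had 878 to 2219 counts in treated thyroid libraries and 0 to 16.8 in treated BAT libraries, normalized within each tissue (-6.74 ± 0.39), and of CORIN, the protease that activates atrial natriuretic peptide (-4.81 ± 0.30). ARG2, an arginase that competes for arginine, was also lower in BAT (-2.43 ± 0.21). Higher in BAT were PDE3B (4.20 ± 0.25) and PDE2A (3.81 ± 0.17), phosphodiesterases inhibited and stimulated by cyclic GMP, and NOSTRIN, which binds NOS3 and moves it from the membrane (3.80 ± 0.22). Each of these 6 calls passed in all 21 other settings.

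As a description, the genes most like each member over log2 normalized counts of the 14 libraries of a tissue were found among all genes tested. In BAT the nearest to NOS2 were MYO7A (Pearson r = 0.931), SORCS2 (0.916) and SH2D4B (0.900), and to NOS3 PHOSPHO1 (0.940), AKAP1 (0.933) and SCAF1 (0.931). In thyroid the nearest to NOS2 were ROBO4 (0.972), one of the endothelial markers, PQLC1 (0.968) and SH2D3C (0.956), and to NOS3 PISD (0.972), which was also near VASP (0.966). NPR3 in thyroid was nearest to POMT2 (0.943), and PRKG1 to SAMD4A (0.975) and KLHL40 (0.959), the latter a gene of skeletal muscle fibres. The libraries share groups and size factors, which these values include.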

How the data were processed

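RNA was extracted with TRIzol, captured on oligo(dT) beads and sequenced as read pairs (BGISEQ-500) by BGI Genomics. The authors trimmed reads with Trimmomatic 0.39, aligned to Oar_rambouillet_v1.0 with STAR 2.7.7a and deposited whole-number counts per gene from featureCounts (Subread 2.0.0), allowing reads with several alignments. Exon lengths came with the deposited counts. Chromosome numbers were assigned from gene symbols shared with RefSeq (ARS-UI_Ramb_v3.0).

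From these, counts were tested with edgeR 4.0.16 (R 4.3.3) per tissue, 14 libraries and 3 groups in 1 fit, keeping a gene where 10 or more libraries had 10 or more reads, with size factors from ACTB, RPL19 and HUWE1 by DESeq2 1.42.0. The controls used were found by matching the study's normalized values. Tissues were compared in 28 libraries. SE is the absolute log2 fold change over the square root of F. The 2 libraries of a lamb are paired by its number in the labels: their deviations from group means correlated at -0.0027 to 0.37 (median 0.22), over 0.1 in 13 of 14 lambs, 11 of which correlated best with their own. The procedure was tested on simulated data. P-values measure the spread between lambs. Depth was 25062784 to 37025998 counts per library.

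The members and lists were chosen with earlier results of these data known. Named genes were the 9 members, the pathway genes with the widest differences among those passing (up to 3 each way), the 3 genes most like a member, and ATG9B. LOC105609336 and OPA3 were named after their overlap was seen. The study's own test (DESeq2) and its requirement of an absolute log2 fold change of at least 1 were alternatives here. The labels give no batch. Other alternatives were scaling, filter, test, controls, groups in the fit, RNA integrity as a covariate, lamb as a block and leaving out lambs. The ratios, the exact tests, NOS3 per endothelial count, all 3 controls with TMM or with the block, and leaving out AT 3 with Control 1 were added after seeing the data.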

Additional observations from a re-analysis of the deposited data

Results flagged for a closer look

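A library was marked where it stood apart from the other 5 of its group by Dixon's criterion, which chance meets in about 1 of 20 groups. It was met in 7 of 36 groups of the 9 genes. NOS2 in BAT had 91.1 normalized counts in Cold 6 (the others 13.02 to 35.1) and 1029 in AT 1 (128 to 423), and in thyroid 267 in AT 1 (120 to 154). NOS3 in thyroid had 452 in AT 1 (285 to 331), so that the same thyroid library was high for both synthases. VASP in BAT had 1071 in Cold 3 (674 to 797). PRKG1 in thyroid had 1257 in AT 3 (140 to 264), the library with the highest sum of skeletal muscle fibre markers. GUCY1A1 in thyroid had 453 in Cold 5 (738 to 897).

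The change of NOS2 in AT against control differed between BAT and thyroid by 5.20 on the log2 scale (adjusted p = 0.00775, edgeR interaction test). Without AT 1 or any other single lamb it passed as well.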

How the results depend on the processing

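The number of the 9 genes that passed changed as follows. In BAT cold against control (1), leaving out 1 lamb gave 0 to 1. In BAT AT against control (2) it was 4 with TMM, with median-of-ratios size factors and with all 3 controls and TMM, and 1 with all 3 controls, with 2 groups in the fit or with an absolute log2 fold change of at least 1, and 1 to 3 on leaving out lambs. In BAT cold against AT (1) it was 0 with all 3 controls or no filter, and 0 to 1 on leaving out lambs. In thyroid it was 1 to 5 on leaving out lambs in both comparisons with control (4 each) and 2 in AT with all 3 controls and TMM. The tissue difference in cold against AT (0) gave 1 with the DESeq2 Wald test and 0 to 1 on leaving out lambs. The number of all genes that passed also moved with the setting. In BAT AT against control it was 1386 in the main fit, 1752 with TMM, 1775 with median-of-ratios size factors and 2863 with all 3 controls and TMM. It was 1813 there with all 3 controls and 534 with 2 groups. In BAT cold against control it was 221, and 103 to 1148 on leaving out lambs. In BAT cold against AT it was 46, with 0 for all 3 controls and 41 for no filter.

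Of the other pathway genes, BAT cold against control (0) gave 1 with TMM, median-of-ratios or the Wald test, 2 with all 3 controls or 2 groups, 3 with all 3 controls and TMM, and 0 to 4 on leaving out lambs. BAT AT against control (4) gave 7 with TMM, with or without the third control, and 1 with 2 groups. BAT cold against AT (0) gave 2 with TMM, median-of-ratios or the Wald test and 0 to 1 on leaving out lambs. Thyroid cold against control (12) gave 6 with TMM or median-of-ratios. Thyroid AT against control (10) gave 5 with these or with 2 groups, and 6 to 16 on leaving out lambs. Over all genes, TMM lowered the thyroid calls against control from 3110 to 1430 in cold and from 3382 to 1408 in AT. In BAT it raised them from 221 to 480 in cold and from 1386 to 1752 in AT. The causes were not tested.

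On leaving out lambs, the log2 fold change of NOS3 in BAT in cold ranged from -1.515 to 0.0427, that of VASP in thyroid in cold from -0.968 to 0.0974 and in AT from -0.9497 to 0.118. The 3 highest values, with the sign changed, came with Control 2 in place of Control 1 (NOS3) or Control 3 (VASP). With the lamb as a block, paired between tissues, 7 of 9 genes passed between tissues, 1 in the tissue difference in AT and 0 in the other 2, as without it, with and without the third control. No paired analysis was possible within a tissue because each lamb was in 1 group. With 2 controls, the comparisons with control depend on which lambs stand for the group. NOS2 in BAT was counted from only 7 to 125 reads in each cold library.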
